A study of Mus musculus with 12 samples.

Results

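The comparison described here was between the tumor-adjacent intestinal epithelium of mice with and without FSP-Cre deletion of PPARB. Its members were chosen by the tissue label "Tumor adjacent epithelium", which gave 6 of the 12 expression arrays of the series, and they were grouped by the genotype characteristic into 3 KO and 3 floxed arrays. All mice were of the C57BL6/J strain on an APCmin/+ background, so every group carried the Apc mutation that gives intestinal tumors. The KO group was FSPCre-PPARB -/- and the floxed group was its PPARB flox/flox littermates, males in both. Tissue was collected at 25 weeks of age, or earlier where weight loss required euthanasia. Epithelium beside the tumors was cut with a laser from stained sections, and its RNA was amplified with a kit for very small inputs and hybridized to 1 array per sample. The labels do not tie arrays to animals, so p-values measure only the spread between these arrays, which may be technical.

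PPARB, also called PPAR beta/delta and encoded by Ppard, is a nuclear receptor activated by fatty acids and their derivatives. It binds DNA together with a retinoid X receptor and raises transcription of genes for fatty acid uptake, storage and oxidation, and it is expressed in intestinal epithelium. FSP-Cre is driven by the promoter of S100a4, the gene of fibroblast-specific protein 1, which is active in fibroblasts and in some myeloid cells. The deletion is therefore aimed at cells of the stroma, while the cells dissected here are epithelial.

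The labels contradict each other for 2 of the 6 arrays. Arrays are numbered here as their descriptions number them. Floxed array 3 carries a KO title, and KO array 1 carries a floxed title, while title and characteristic agree for the other 4 arrays. The main comparison is therefore 3 arrays against 3 by the characteristic, and values for the 2 against 2 arrays with labels in agreement, and by the title, are given beside the results they bear on. The arrays also differed in the spread of their values. The SD over all probe sets within an array was 1.09 and 1.08 in floxed arrays 1 and 2 and 1.52 to 1.56 in the other 4 adjacent arrays. Over all probe sets, floxed arrays 1 and 2 correlated at 0.592 with each other and at 0.564 to 0.609 with the other adjacent arrays. The KO arrays correlated at 0.958 to 0.973 among themselves, and KO array 1, with the floxed title, correlated at 0.958 to 0.960 with KO arrays 2 and 3. KO array 1 correlated at 0.970, 0.973 and 0.956 with KO tumor arrays 1, 2 and 3. Floxed array 3 correlated at 0.834 to 0.852 with the KO arrays and at 0.900 with floxed tumor array 3. In the 2 against 2 comparison both floxed arrays are those of narrow spread, so array spread and genotype cannot be told apart there.

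The tissue label was set against 10 markers of intestinal epithelium, none of which passed with 3 against 3. The mean was higher in KO in all but Krt20, but the order of the arrays was not the same in all. Krt8, a keratin of simple epithelia, read 3.81, 5.47 and 9.97 in the floxed arrays and 6.78, 8.09 and 7.66 in the KO arrays, highest in floxed array 3 and lowest in floxed array 1. Epcam, the epithelial adhesion molecule, read 4.60, 5.04 and 5.73 in the floxed arrays and 4.89, 5.55 and 5.72 in the KO arrays. Cdh17, an intestinal cadherin, read 6.10, 4.67 and 5.80 in the floxed arrays and 8.07, 8.23 and 8.09 in the KO arrays. Vil1, the villin of the brush border, read 5.73, 4.31 and 6.86 in the floxed arrays and 7.53, 7.34 and 7.11 in the KO arrays. The homeobox factor Cdx1, which sets intestinal identity, read 4.97, 5.09 and 4.64 in the floxed arrays and 5.94, 5.88 and 6.03 in the KO arrays, and its difference of 1.04 ± 0.21 (SE) did not pass the test (limma adjusted p = 0.0588). Cdx2, another such factor, read 5.52, 4.53 and 5.16 in the floxed arrays and 5.75, 6.09 and 5.92 in the KO arrays. In the other 4 markers floxed array 3 was the highest of the 6 arrays. Cdh1, the cadherin of epithelial junctions, read 4.88, 5.49 and 8.0 in the floxed arrays and 6.16, 6.91 and 6.90 in the KO arrays. The keratins Krt18 and Krt19 read 5.53, 5.18 and 8.27, and 4.47, 4.62 and 9.58, in the floxed arrays, and 5.30, 7.22 and 7.50, and 6.03, 7.25 and 6.92, in the KO arrays. Krt20, a keratin of mature enterocytes, read 6.60, 5.51 and 8.86 in the floxed arrays and 6.98, 6.86 and 6.90 in the KO arrays. Without floxed arrays 1 and 2 the differences of Krt8, Cdh1, Krt18, Krt19 and Krt20 were -2.46, -1.35, -1.60, -2.85 and -1.95. For scale, probe sets with no gene name had a median between 3.91 and 3.94 in the KO arrays. All expression values here are log2, differences are KO minus floxed on that scale with the standard error of the fit, and a gene passed the test where limma's p-value, adjusted by Benjamini-Hochberg over all 19938 genes, was under 0.05.

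With 3 arrays against 3, the KO epithelium was higher in a set of small nucleolar RNAs, in Rpl5 and Gas5, and in a mixed set of protein-coding genes, and lower in 2 microRNA genes, the mitochondrial gene ND3 and genes of low level. In all, 37 genes rose (0.186% of those tested) and 11 fell (0.0552%). At an unadjusted p under 0.05 there were 3955 genes. The count of 48 turned on single arrays: it was 22, 31 and 3133 without floxed arrays 1, 2 and 3, and 23, 11 and 13 without KO arrays 1, 2 and 3. The lowest KO array was above the highest floxed array in 2739 genes (13.7% of those tested), and the highest KO array was below the lowest floxed array in 2924 genes (14.7%). The median difference over all genes was -0.02. In 9 of the 11 falls all KO arrays were below the median of the unnamed probe sets, which was so for 0 of the 37 rises.

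**Figure D1:**
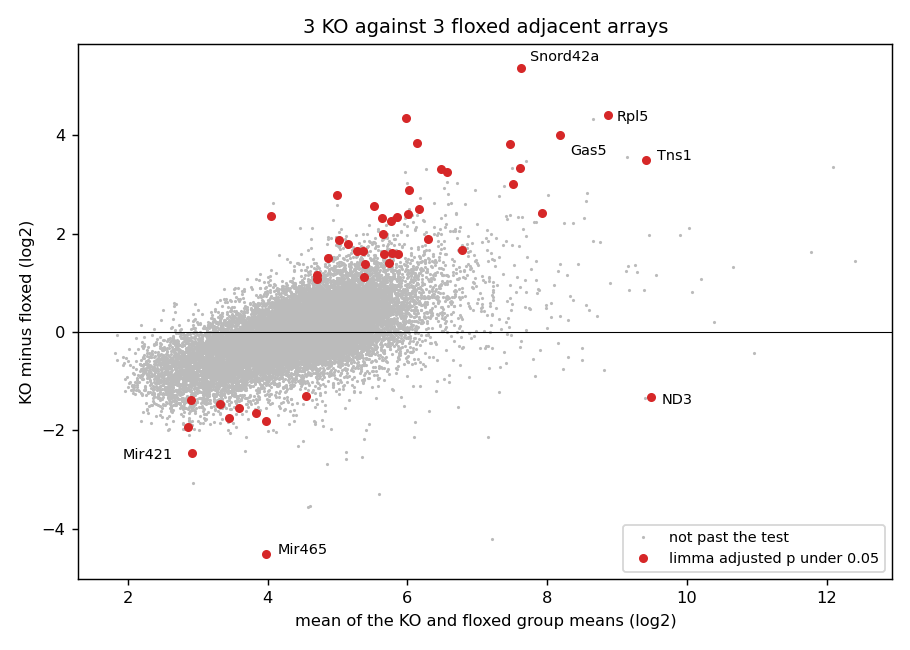
Difference between the 3 KO and 3 floxed adjacent arrays (log2, vertical axis) against the mean of the group means (log2, horizontal axis), with 1 point per gene and the 48 genes past the test in red. Most of the 37 rises lie at mid to high levels and most of the 11 falls at low levels, and the grey cloud itself tilts upward with level.

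The largest rise was in Snord42a, a box C/D small nucleolar RNA (snoRNA), of the class that guides methylation of ribosomal RNA. It read 4.93, 5.15 and 4.73 in the floxed arrays and 10.49, 10.06 and 10.36 in the KO arrays. The groups were far apart, with a difference of 5.37 ± 0.27 (SE, n = 3 and 3; limma adjusted p = 1.10e-06). Snord42a passed the test under 20 of 21 alternative settings, the exception being the genotype read from the title, under which the difference was 1.53. Its neighbour Snord42b read 3.38, 4.53 and 4.73 in the floxed arrays and 8.18, 7.91 and 8.09 in the KO arrays, a difference of 3.84 ± 0.37 (limma adjusted p = 0.000752). Snora62 and Snora69 are box H/ACA snoRNAs, of the class that guides pseudouridylation. Snora62 read 5.73, 4.66 and 6.30 in the floxed arrays and 9.50, 9.17 and 9.48 in the KO arrays (difference 3.82 ± 0.39), and Snora69 read 3.20, 2.86 and 2.53 in the floxed arrays and 5.0, 5.34 and 5.35 in the KO arrays (difference 2.37 ± 0.32). In each of these 4 genes every KO array was above every floxed array, and floxed array 3 stood with the other floxed arrays.

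Most of the class did not pass with these 4. Of 63 snoRNA and small nuclear RNA genes tested, 4 rose (6.35%, beside 0.186% of all genes), none fell and the median difference was 0.05. With the 2 against 2 arrays 8 were higher (12.7%, beside 2.91% of all genes) and 1 lower, with a median of 0.38, and without floxed arrays 1 and 2 the median was -0.15. Snord37 read 3.64, 3.45 and 3.26 in the floxed arrays and 1.70, 1.65 and 2.22 in the KO arrays, and Snord53 read 4.71, 5.24 and 3.60 in the floxed arrays and 2.69, 2.39 and 2.67 in the KO arrays, with every KO array below every floxed array in both; neither passed the test (limma adjusted p = 0.0668 and 0.0577). These 2 were chosen after their values were seen. The snoRNAs that rose lie, by the RefSeq gene models, within ribosomal protein genes, from whose introns such RNAs are cut. Rpl23a, which holds Snord42a and Snord42b, had a difference of 0.46 ± 0.75 (limma adjusted p = 0.749). It read 5.56, 7.05 and 9.18 in the floxed arrays and 7.25, 7.96 and 7.95 in the KO arrays, so floxed array 3 was above all KO arrays in the host while it was lowest of all arrays in Snord42a. Rpsa, which holds Snora62, read 6.55, 6.34 and 10.22 in the floxed arrays and 8.58, 8.74 and 9.30 in the KO arrays and did not pass the test (difference 1.17 ± 1.11, limma adjusted p = 0.564).

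Rpl5, which encodes a large-subunit ribosomal protein, had the second largest rise. It read 5.53, 6.63 and 7.82 in the floxed arrays and 10.92, 11.02 and 11.28 in the KO arrays, a difference of 4.41 ± 0.47 (limma adjusted p = 0.0014). Only 1 of the 5 probe sets of Rpl5 passed the test when all probe sets were fitted, and the 5 differences ran from 1.26 to 4.41. Gas5, a long noncoding RNA that hosts several snoRNAs, read 5.60, 5.69 and 7.24 in the floxed arrays and 9.96, 10.14 and 10.45 in the KO arrays, a difference of 4.0 ± 0.54 (limma adjusted p = 0.00744). Its 4 probe sets ran from -0.62 to 4.00 and 2 of them passed. Snord47, a snoRNA within Gas5, read 3.57, 6.45 and 5.30 in the floxed arrays and 4.12, 3.97 and 3.79 in the KO arrays and had the opposite sign (-1.15 ± 0.64, limma adjusted p = 0.324).

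The other large rises were in protein-coding genes of several functions. Tns1, tensin, a focal adhesion protein abundant in smooth muscle and stroma, read 8.43, 7.67 and 6.91 in the floxed arrays and 11.54, 11.16 and 10.80 in the KO arrays, a difference of 3.50 ± 0.41 (limma adjusted p = 0.00332). All 6 arrays were well above the unnamed probe sets in Tns1, and the lowest floxed array was floxed array 3. Of its 6 probe sets, 1 passed, and their differences ran from -0.40 to 3.50. The other 14 measured genes of a smooth muscle list that held Tns1 did not pass the test, and the list's median difference was -0.16. Tmem176b, a membrane protein of immune and other cells, read 4.54, 4.45 and 5.44 in the floxed arrays and 6.91, 7.09 and 7.63 in the KO arrays (difference 2.40 ± 0.32, limma adjusted p = 0.00744).

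Chromatin and RNA-binding genes were among the rises. Chd7, a chromatin remodeler, read 4.90, 4.27 and 5.29 in the floxed arrays and 8.02, 7.72 and 8.68 in the KO arrays, a difference of 3.32 ± 0.37. Kansl1, a scaffold of the NSL histone acetyltransferase complex, read 3.57, 4.62 and 4.54 in the floxed arrays and 6.66, 6.72 and 7.04 in the KO arrays, a difference of 2.56 ± 0.34. Rbm6, an RNA-binding protein that acts in splicing, read 4.41, 4.44 and 4.58 in the floxed arrays and 6.74, 6.88 and 6.78 in the KO arrays, with the floxed arrays close together and a difference of 2.32 ± 0.21 (limma adjusted p = 0.000637). The groups did not overlap in any of the 3. For Chd7 2 of 30 probe sets passed, with differences from -1.37 to 3.32, and for Kansl1 and Rbm6 1 of 2 passed.

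A further set act in protein sorting and turnover. Tmed4, a cargo receptor of the early secretory pathway, read 3.98, 4.07 and 5.67 in the floxed arrays and 7.46, 7.35 and 7.61 in the KO arrays (difference 2.90 ± 0.50). Snf8, a subunit of the ESCRT-II complex that sorts ubiquitinated membrane proteins, read 3.34, 2.85 and 4.60 in the floxed arrays and 6.41, 6.37 and 6.41 in the KO arrays (difference 2.80 ± 0.36). Ltn1, the ubiquitin ligase that marks nascent chains on stalled ribosomes, read 4.96, 4.50 and 5.29 in the floxed arrays and 6.77, 7.43 and 8.03 in the KO arrays (difference 2.49 ± 0.34). Rnf5, a ubiquitin ligase of the endoplasmic reticulum membrane, had a difference of 1.89 ± 0.27, and Usp17ld, a deubiquitinating enzyme, one of 3.01 ± 0.47. In Tmed4, Snf8, Ltn1 and Rnf5 floxed array 3 was the highest floxed array, nearest the KO arrays, while in Usp17ld it was the lowest, at 4.90. The limma adjusted p was between 0.00652 and 0.0429 over these 5 genes. Uck2, a uridine and cytidine kinase, Park7, the redox-sensing protein DJ-1, and Psg20, a pregnancy-specific glycoprotein, rose by 2.33 ± 0.40, 2.26 ± 0.34 and 1.87 ± 0.27. For Uck2, KO array 1 was the lowest KO array, at 6.03 against 7.45 and 7.58. Only 1 of the 16 probe sets of Ltn1 passed, with differences from -0.88 to 2.49. Uck2 and Psg20 had 2 probe sets each, of which 1 passed, and the other differed by 0.52 and -0.80.

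A further 3 genes, named only by number or sequence model, had gaps as wide. Gm10768 read 4.03, 4.26 and 3.10 in the floxed arrays and 9.35, 8.22 and 6.90 in the KO arrays, Gm24463 read 5.43, 6.20 and 6.19 in the floxed arrays and 9.37, 9.18 and 9.30 in the KO arrays, and 4932438A13Rik, whose protein transfers lipids between membranes, read 4.62, 4.27 and 5.91 in the floxed arrays and 8.28, 8.13 and 8.15 in the KO arrays. The 5 probe sets of Gm24463 hold only 3 distinct sets of values; each passed, with differences between 3.24 and 3.34. For 4932438A13Rik, 2 of 19 passed and the differences ran from -1.84 to 3.32. Of the 13 genes past the test that had several probe sets, 9 had 1 that passed.

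**Figure D2:**
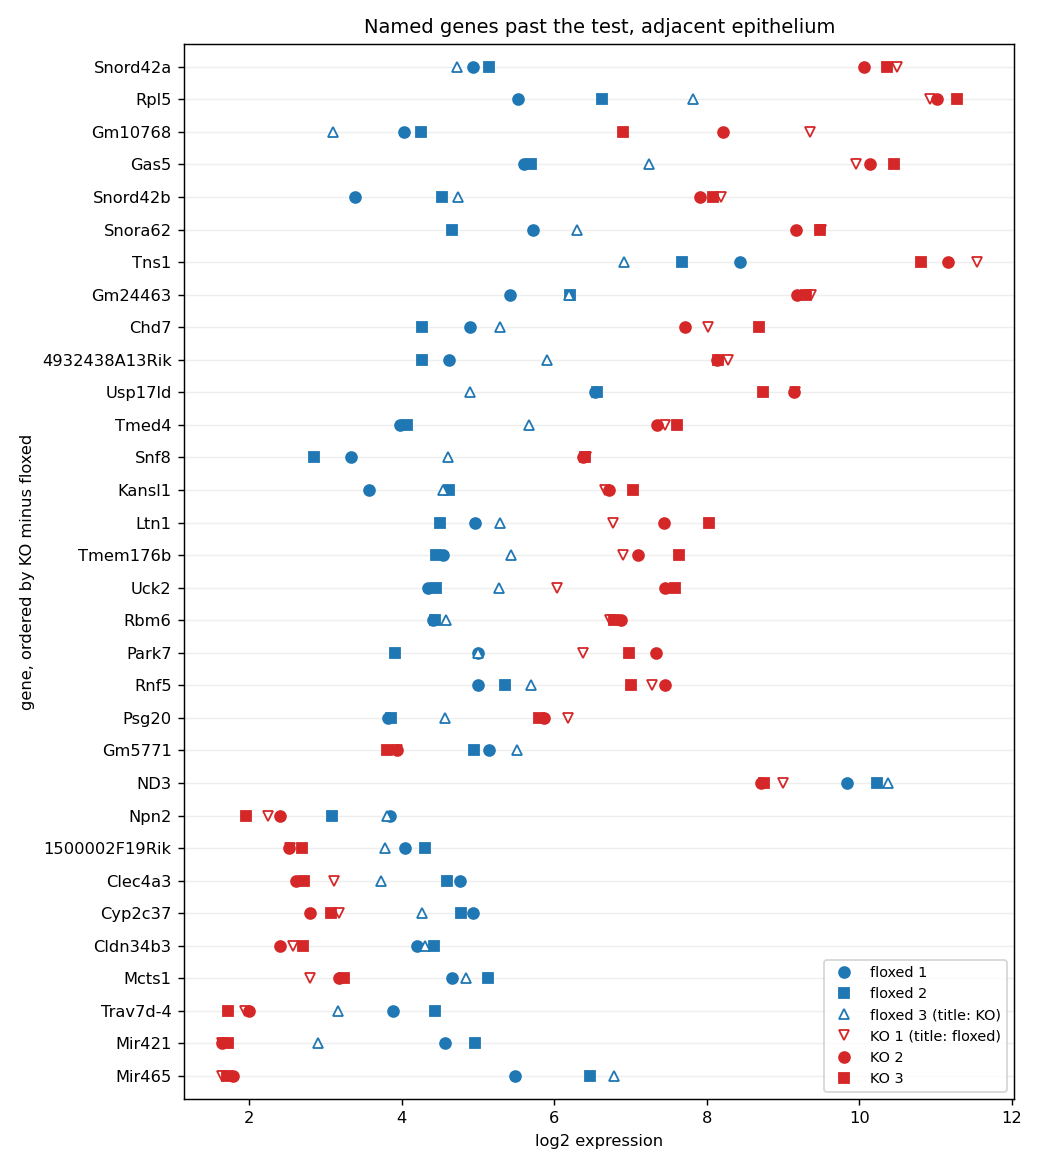
Log2 expression of the named genes past the test in each adjacent array, ordered by KO minus floxed. Blue marks are floxed and red marks KO arrays, and open marks are the 2 arrays whose title gives the other genotype; no red mark overlaps the blue marks in any row, and the open blue triangle is often the blue mark nearest to the red ones.

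MicroRNA genes were among the changes in both directions, and the mature sequences RefSeq lists for those 4 genes are shown so that their seeds can be set side by side; no seed occurs more than once among them. An array probe set for such a gene cannot tell the hairpin from the mature RNA. The sequences are those of RefSeq on GRCm38.p6, in RNA letters, 5′ to 3′, with the seed (bases 2 to 8) in capitals. All lie on the minus strand.
mmu-miR-483-5p, chr7:142654968-142654989: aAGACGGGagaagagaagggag
mmu-miR-483-3p, chr7:142654932-142654952: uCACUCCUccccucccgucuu
mmu-let-7a-5p, chr13:48538239-48538260: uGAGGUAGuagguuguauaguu
mmu-let-7a-1-3p, chr13:48538188-48538209: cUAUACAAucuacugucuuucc
mmu-miR-421-5p, chrX:103572966-103572986: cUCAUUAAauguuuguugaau
mmu-miR-465a-5p, chrX:66839099-66839121: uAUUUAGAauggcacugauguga
mmu-miR-465a-3p, chrX:66839063-66839084: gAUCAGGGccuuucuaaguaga

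Mir465, listed to the hairpin of miR-465a, had the largest fall of any gene past the test. It read 5.49, 6.47 and 6.78 in the floxed arrays and 1.65, 1.80 and 1.71 in the KO arrays, a difference of -4.53 ± 0.45 (limma adjusted p = 0.000882). All 3 floxed arrays, floxed array 3 included, stood well above the unnamed probe sets, and all 3 KO arrays stood near the bottom of the range. Mir421 read 4.57, 4.96 and 2.90 in the floxed arrays and 1.65, 1.65 and 1.73 in the KO arrays, a difference of -2.47 ± 0.42 (limma adjusted p = 0.035), with floxed array 3 between the groups. In the other direction, Mir483, which lies within Igf2, read 7.14, 6.59 and 6.44 in the floxed arrays and 9.43, 8.94 and 9.04 in the KO arrays, a difference of 2.41 ± 0.32 (limma adjusted p = 0.00744). Igf2, a growth factor gene, had a difference of -0.22 ± 0.35 (limma adjusted p = 0.738). Mirlet7a-1, 1 of the genes of the let-7 family, read 4.74, 4.69 and 4.52 in the floxed arrays and 7.05, 6.48 and 6.40 in the KO arrays (difference 1.99 ± 0.31, limma adjusted p = 0.0183). Over the 301 microRNA genes tested, 2 rose and 2 fell, beside 0.186% and 0.0552% of all genes. The median difference was -0.56, and 99 (32.9%) lay below all floxed arrays in every KO array, beside 14.7% of all genes. With 2 against 2, 4 microRNA genes were higher (1.33%, beside 2.91% of all genes) and 43 lower (14.3%, beside 3.15% of all genes), with a median of -0.84. The 1246 olfactory, vomeronasal, taste and trace amine receptor genes, most of which are known from sensory tissues, had a median of -0.79 with none past the test, and 613 (49.2%) lay below all floxed arrays. With 2 against 2, 210 of these receptor genes were lower (16.9%, beside 3.15% of all genes) and 0 higher, with a median of -1.10. Without floxed arrays 1 and 2 the medians were -0.0021 for microRNAs and -0.17 for these receptors. The part of the narrow spread of floxed arrays 1 and 2 in the falls was not tested.

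Protein-coding falls were few and mostly at low levels. ND3, a complex I subunit encoded by the mitochondrial genome, was the only one at a high level. It read 9.84, 10.23 and 10.37 in the floxed arrays and 9.0, 8.72 and 8.75 in the KO arrays, a difference of -1.32 ± 0.24 (limma adjusted p = 0.0488), and its second probe set had a difference of -0.02. Mcts1, a factor that acts in translation reinitiation, read 4.66, 5.13 and 4.85 in the floxed arrays and 2.80, 3.18 and 3.25 in the KO arrays (difference -1.81 ± 0.26). Cldn34b3, a claudin family member, read 4.20, 4.42 and 4.31 in the floxed arrays and 2.58, 2.41 and 2.71 in the KO arrays (difference -1.74 ± 0.23). Cyp2c37, a cytochrome P450, read 4.94, 4.77 and 4.27 in the floxed arrays and 3.18, 2.80 and 3.07 in the KO arrays (difference -1.64 ± 0.26). The groups did not overlap in these genes. Trav7d-4, a T cell receptor variable segment, Clec4a3, a lectin receptor of myeloid cells, and Npn2 fell, with differences of -1.94 ± 0.30, -1.54 ± 0.28 and -1.38 ± 0.25. The limma adjusted p of the 6 genes other than ND3 was between 0.00744 and 0.0488. Serpinb9d (-1.97 ± 0.37), Scg3 (-1.23 ± 0.23) and Anp32-ps (-1.76 ± 0.34) were next by unadjusted p and did not pass.

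With the 4 arrays whose labels agree, many more genes passed the test, and the 48 genes above were among them. There were 580 genes higher in KO (2.91% of those tested) and 629 lower (3.15%). All 48 passed at limma adjusted p-values from 0.000203 to 0.0495. With 1 of the 4 arrays left out the count was 427 and 215 (floxed arrays 1 and 2) and 10 and 1 (KO arrays 2 and 3). These 4 arrays are part of the 6, and the groups do not overlap in any of the 48 genes, which fixes the direction, so this is the same measurement with the conflicting arrays left out, not a second sample. With the genotype read from the title, 1 gene passed, Gkn3, and 0 of the 48 did. The 48 were chosen for groups set by the characteristic, and the title exchanges 1 array of each group, which moves their differences toward 0. Their loss by title therefore does not show which label is right. At an unadjusted p under 0.05 there were 2905 genes by title. In the reverse case, with floxed arrays 1 and 2 left out so that floxed array 3 stood alone, 12 genes were higher (0.0602%) and 34 lower (0.171%), and the lone array is assumed to vary like the other groups. Of the 48 genes, 12 passed in that fit: Snord42a, Snord42b, Snora62, Rpl5, Tns1, Usp17ld, Gm24463, Mir483, Rbm6 and Snf8 were higher, and Mir465 and Gm5771 were lower. The differences there were 5.58 for Snord42a, 4.25 for Tns1, 3.25 for Rpl5, 2.22 for Rbm6 and -5.07 for Mir465.

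**Figure D3:**
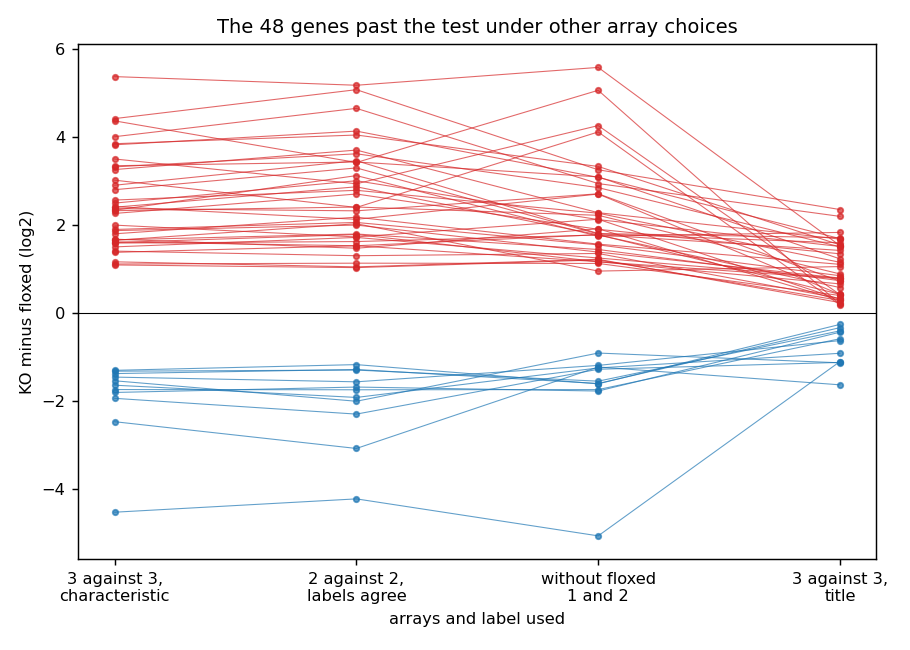
KO minus floxed difference (log2) of the 48 genes past the 3 against 3 test, with 1 line per gene, under the genotype characteristic, with the 4 arrays whose labels agree, without floxed arrays 1 and 2, and with the genotype taken from the title. The side of 0 of each line is fixed in the first 3 columns by groups that do not overlap. Most lines lie closer to 0 on the right, by title, than in the other 3 columns. The choice of genes by the characteristic brings this about, so it does not show which label is right.

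Ppard itself did not pass the test, and its mean was the higher in KO epithelium. It read 5.09, 4.61 and 5.76 in the floxed arrays and 6.13, 5.76 and 5.51 in the KO arrays, a difference of 0.65 ± 0.36 (limma adjusted p = 0.329). The difference was 0.78 in the 4 arrays whose labels agree (limma adjusted p = 0.23) and 0.04 without floxed arrays 1 and 2. The probe set need not lie in the floxed part of the gene, and the deletion is aimed at stroma, so this level checks neither the deletion nor the labels. S100a4, whose promoter drives the Cre, read 5.24, 4.20 and 3.82 in the floxed arrays and 4.67, 4.54 and 4.20 in the KO arrays (difference 0.05 ± 0.33), near the level of unnamed probe sets in most arrays. Ppara, the PPAR of fatty acid oxidation, had a difference of -0.12 ± 0.34. Pparg, the PPAR of adipocytes and of differentiated gut epithelium, read 4.21, 4.02 and 7.37 in the floxed arrays and 4.99, 5.28 and 5.19 in the KO arrays. Floxed array 3 alone was high in Pparg, and the difference of -0.05 ± 0.80 became 1.12 without the arrays of conflicting labels. Apc read 5.02, 5.50 and 5.76 in the floxed arrays and 5.03, 5.09 and 4.94 in the KO arrays (difference -0.40 ± 0.30). None of these 5 genes passed the test in either comparison.

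Receptor partners and target genes of the PPARs were measured as lists. Of 16 measured receptors and partners, none passed with 3 against 3; the median difference was 0.34, against -0.02 over all genes, 0.73 with 2 against 2 and 0.01 without floxed arrays 1 and 2. Med1, the Mediator subunit that binds nuclear receptors, read 4.15, 3.45 and 4.87 in the floxed arrays and 4.92, 5.46 and 5.28 in the KO arrays and passed with 2 against 2 (1.57, limma adjusted p = 0.0322). The acetyltransferase coactivators Crebbp and Ep300 had differences of 1.42 ± 0.61 and 0.74 ± 0.33, and Ncoa3, another coactivator, one of 0.74 ± 0.36. Of 35 measured PPAR target genes, none passed in either comparison, and the median difference was 0.16, with 20 above and 15 below 0. It was 0.31 with 2 against 2 and -0.26 without floxed arrays 1 and 2. Floxed array 3 was above all KO arrays in 17 of the 35, beside 35.7% of all genes. Cyp4a10, a fatty acid hydroxylase and classical PPAR target, read 4.81, 3.66 and 3.87 in the floxed arrays and 2.39, 2.75 and 3.18 in the KO arrays, a difference of -1.34 ± 0.39 (limma adjusted p = 0.119). Eci2, an isomerase of fatty acid oxidation, had a difference of -0.69 ± 0.20. Acaa1b, a peroxisomal thiolase, read 3.20, 5.36 and 4.72 in the floxed arrays and 6.22, 5.39 and 5.77 in the KO arrays (difference 1.37 ± 0.44), and Slc27a4, a fatty acid transporter, had a difference of 1.38 ± 0.49. The 4 targets thus did not share a direction.

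Absorptive enterocyte genes were the most one-sided of the lists of epithelial cell types, without any gene passing the test. Of 39 measured genes, 37 had a difference above 0, 11 lay above all floxed arrays in every KO array (13.7% of all genes did), and the median difference was 1.18 with 3 against 3 and 1.12 with 2 against 2. The list mean was 5.31, 4.59 and 5.71 in the floxed arrays and 6.86, 6.42 and 5.72 in the KO arrays, so that floxed array 3 and KO array 3 were level. In tumor epithelium it was 6.39, 5.27 and 7.75 in the floxed arrays and 7.10 to 7.56 in the KO arrays, above every KO adjacent array. Slc3a1 and Slc7a9, the 2 chains of the brush border transporter of cystine and basic amino acids, were both higher in every KO array than in any floxed array. Slc3a1 read 3.98, 4.13 and 3.90 in the floxed arrays and 6.52, 6.28 and 5.47 in the KO arrays. Slc7a9 read 4.15, 3.61 and 4.51 in the floxed arrays and 6.09, 5.98 and 5.51 in the KO arrays. Their differences were 2.09 ± 0.46 and 1.77 ± 0.53 (limma adjusted p = 0.0717 and 0.123). Maf, a transcription factor of mature enterocytes, had a difference of 1.33 ± 0.38. Mme, the brush border peptidase neprilysin, read 4.95, 4.20 and 4.61 in the floxed arrays and 7.43, 6.74 and 5.10 in the KO arrays, with KO array 3 close to the floxed arrays. By title the list's median was 0.28.

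In several Wnt target genes KO array 1, the one with the floxed title, lay apart from the other KO arrays. Of 31 measured Wnt/beta-catenin targets none passed with 3 against 3, and the median was 0.26. With 2 against 2, 5 were higher and 1 lower (2.91% and 3.15% of all genes were), and the median was 0.61. The list mean was 4.46, 4.69 and 4.81 in the floxed arrays and 4.72, 5.22 and 5.40 in the KO arrays. It was 4.38 to 4.72 in the tumor epithelium arrays, so KO arrays 2 and 3, and also floxed array 3, were above every tumor array. Whether the adjacent arrays hold only tissue from beside the tumors was not tested. Notum, a secreted Wnt antagonist that is itself a Wnt target, read 3.92, 4.63 and 4.88 in the floxed arrays and 4.78, 6.50 and 6.30 in the KO arrays. Kcne3, a potassium channel subunit, read 4.08, 4.75 and 5.41 in the floxed arrays and 5.16, 7.32 and 7.52 in the KO arrays. In both, KO array 1 lay with the floxed arrays and KO arrays 2 and 3 lay above, and the 2 against 2 differences of 2.12 and 3.0 passed (limma adjusted p = 0.0148 and 0.0126). Nkd1, another feedback antagonist, read 4.93, 4.80 and 5.24 in the floxed arrays and 5.32, 6.33 and 6.48 in the KO arrays, with KO array 1 just above the floxed arrays, and Dkk3 had a difference of 1.03 ± 0.32 in the 6 arrays. Among 23 measured stem cell markers none passed with 3 against 3 and 2 were higher with 2 against 2 (2.91% of all genes were). Gkn3, which is also on the gastric list described below, was 1 of these 2. The medians were 0.55 and 0.67. The mean of these markers, Gkn3 included, was 5.11 and 5.24 in KO arrays 2 and 3 and at most 4.79 in the tumor epithelium arrays. Rnf43, the ligase that removes Wnt receptors, read 4.20, 3.80 and 5.67 in the floxed arrays and 5.76, 6.37 and 6.82 in the KO arrays and Axin2, a negative regulator of beta-catenin, read 4.43, 3.96 and 5.21 in the floxed arrays and 5.13, 5.41 and 6.03 in the KO arrays. Neither passed in either comparison, and Msi1 (0.74 ± 0.31) and Clca3b (1.47 ± 0.45) did not either.

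Among genes of fetal and regenerating epithelium, KO array 1 was the lowest KO array in Clu and Ereg but not in Basp1. Of 24 measured genes none passed with 3 against 3, with a median of 0.40, and 5 were higher with 2 against 2 (2.91% of all genes were), with a median of 0.78. Without floxed arrays 1 and 2 the median was -0.19. The list mean was 4.59, 4.85 and 5.81 in the floxed arrays and 5.07, 5.67 and 5.68 in the KO arrays, beside 4.54 to 5.23 in the tumor epithelium arrays. Clu, the clusterin of revival stem cells, read 6.14, 5.91 and 8.81 in the floxed arrays and 7.46, 9.02 and 8.95 in the KO arrays, so that floxed array 3 lay with KO arrays 2 and 3. Its difference was 1.52 ± 0.70 with 3 against 3, 2.96 with 2 against 2 (limma adjusted p = 0.0163), and -0.33 without floxed arrays 1 and 2. Ereg, a ligand of the EGF receptor, read 2.25, 3.86 and 3.76 in the floxed arrays and 3.79, 5.14 and 4.52 in the KO arrays, and Basp1 read 5.01, 5.59 and 5.91 in the floxed arrays and 6.61, 6.63 and 6.52 in the KO arrays. Anxa3 went the other way, with a difference of -1.13 ± 0.32 (limma adjusted p = 0.108).

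Some lipid synthesis genes also separated the KO arrays. Of 27 measured genes of cholesterol and fatty acid synthesis none passed with 3 against 3, 12 lay above all floxed arrays (13.7% of all genes), and the median was 0.64. Scd2, a stearoyl-CoA desaturase, read 3.67, 4.22 and 3.48 in the floxed arrays and 4.40, 6.77 and 7.02 in the KO arrays. KO arrays 2 and 3 were far above the rest, KO array 1 was just above the floxed arrays, and the 2 against 2 difference of 2.95 passed (limma adjusted p = 0.0046). Fads2, another desaturase, read 4.71, 5.25 and 4.62 in the floxed arrays and 5.40, 6.34 and 6.39 in the KO arrays and also passed with 2 against 2 (1.38, limma adjusted p = 0.0472). Scd1 and Pmvk, a kinase of the mevalonate pathway, had differences of 0.82 ± 0.26 and 0.91 ± 0.27 and did not pass in either comparison.

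Ribosomal protein genes depended on which floxed arrays were used. Of 56 measured cytosolic ribosomal protein genes, 1, Rpl5, rose with 3 against 3 (0.186% of all genes did), and the median was 0.72. With 2 against 2, 12 were higher (2.91% of all genes) and the median was 1.54. Without floxed arrays 1 and 2 the median was -0.99. Floxed array 3 was above all KO arrays in 40 of the 56 genes, beside 35.7% of all genes. The list mean was 6.18, 6.42 and 8.48 in the floxed arrays and 7.46, 7.89 and 7.93 in the KO arrays. Rps12 read 9.23, 10.09 and 10.67 in the floxed arrays and 10.98, 11.44 and 11.55 in the KO arrays, Rpl37a read 6.15, 5.86 and 9.46 in the floxed arrays and 9.64, 10.08 and 10.25 in the KO arrays, and both passed with 2 against 2 only (limma adjusted p = 0.0262 and 0.0163). Rpl29 had a difference of -0.96 ± 0.26. Among 11 measured host genes of snoRNAs, Gas5 rose with 3 against 3 (0.186% of all genes did). The median was 0.80 with 3 against 3 and -0.25 without floxed arrays 1 and 2. Taf1d, a host gene that encodes an RNA polymerase I factor, read 4.91, 5.17 and 7.78 in the floxed arrays and 8.13, 9.71 and 10.49 in the KO arrays, and the noncoding hosts Snhg17 and Snhg11 had differences of 2.34 ± 0.70 and 0.87 ± 0.24.

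Other structured noncoding RNAs had the highest list median, though none passed the test. Of 12 measured genes 8 lay above all floxed arrays in every KO array, beside 13.7% of all genes, and the median difference was 1.95, 2.34 with 2 against 2 and 1.15 without floxed arrays 1 and 2. Vaultrc5, a vault RNA, read 6.34, 4.86 and 8.27 in the floxed arrays and 11.38, 10.47 and 10.60 in the KO arrays (difference 4.33 ± 0.89, limma adjusted p = 0.0599). Rprl1 and Rprl2, copies of the RNA of ribonuclease P, did not overlap between the groups. Rprl1 read 3.97, 4.02 and 5.27 in the floxed arrays and 6.27, 6.52 and 6.46 in the KO arrays. Rprl2 read 6.56, 5.16 and 6.79 in the floxed arrays and 8.27, 8.12 and 7.85 in the KO arrays. Rny1, a Y RNA bound by the Ro protein, read 5.39, 8.72 and 7.57 in the floxed arrays and 8.98, 10.19 and 10.53 in the KO arrays, with floxed array 2 close below KO array 1. These 4 genes passed with 2 against 2, at limma adjusted p-values of 0.0242, 0.0147, 0.0396 and 0.0465. Near-identical copies of such RNAs in the genome can share probes.

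**Figure D4:**
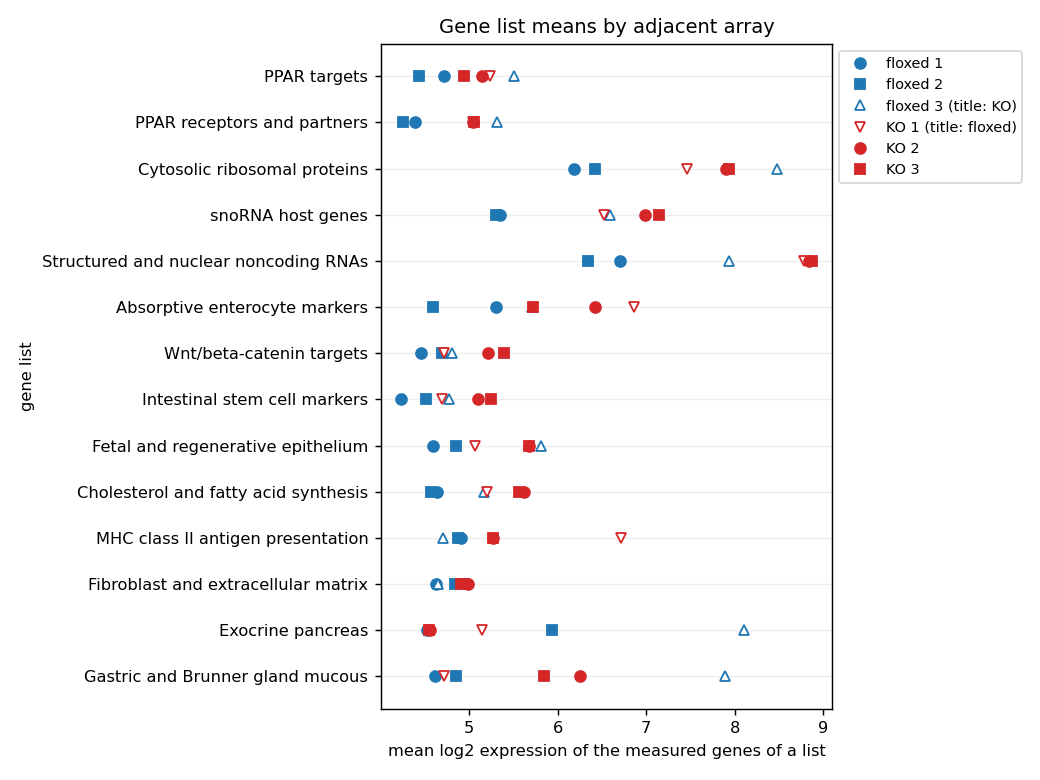
Mean log2 expression of the measured genes of 14 lists in each adjacent array, with floxed arrays in blue, KO arrays in red and the 2 arrays of conflicting labels as open marks. Floxed array 3 is the highest array for ribosomal, pancreatic and gastric genes, and KO array 1 is the highest for enterocyte and MHC class II genes.

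Markers of cells other than intestinal epithelium moved with single arrays. Of 15 measured exocrine pancreas genes none passed, and the median difference was -1.48, and -0.71 with 2 against 2; the list mean was 4.53, 5.94 and 8.11 in the floxed arrays and 5.14, 4.56 and 4.55 in the KO arrays, and 8.48 in floxed tumor array 3. The trypsinogen Try4 read 3.60, 7.70 and 7.76 in the floxed arrays and 4.17, 1.91 and 2.28 in the KO arrays. Try5, another trypsinogen, read 4.89, 8.30 and 8.54 in the floxed arrays and 4.77, 3.78 and 3.29 in the KO arrays. They were high in floxed arrays 2 and 3 and low elsewhere. Cela3b, a pancreatic elastase, read 4.94, 5.50 and 7.23 in the floxed arrays and 4.87, 4.16 and 3.97 in the KO arrays, high in floxed array 3. Zg16, a zymogen granule protein that goblet cells also make, read 6.57, 6.18 and 8.57 in the floxed arrays and 8.48, 8.70 and 8.50 in the KO arrays and so went against the list. The part of pancreatic RNA in the results above was not tested. In bulk tissue, fewer cells of a type and less RNA per cell cannot be told apart.

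Gastric genes marked floxed array 3 and, for some genes, KO arrays 2 and 3. Of 14 measured gastric and Brunner gland mucous genes none passed with 3 against 3, and 2 were higher with 2 against 2 (2.91% of all genes were). The median was -0.35 with 3 against 3, 0.77 with 2 against 2 and -2.55 without floxed arrays 1 and 2, with list means of 4.61, 4.85 and 7.89 in the floxed and 4.72, 6.25 and 5.85 in the KO arrays. Muc5ac, the mucin of gastric surface cells, read 4.52, 4.80 and 9.91 in the floxed arrays and 4.36, 4.50 and 4.40 in the KO arrays, so that floxed array 3 alone was high. Gkn3, a gastrokine, read 4.20, 4.96 and 8.87 in the floxed arrays and 4.34, 8.51 and 8.02 in the KO arrays, high in exactly the 3 arrays whose title says KO. It was the 1 gene that passed by title (difference 3.96, limma adjusted p = 0.00967), it did not pass by the characteristic (limma adjusted p = 0.661), and it passed with 2 against 2 (limma adjusted p = 0.0126). It is named because it was that gene, and it is also on the list of stem cell markers above. Wfdc18, a whey acidic protein family gene, read 3.47, 5.86 and 4.49 in the floxed arrays and 4.27, 9.61 and 9.88 in the KO arrays, high only in KO arrays 2 and 3 (2 against 2 difference 5.08, limma adjusted p = 0.0046). Aqp5, a water channel, and Muc5b, a mucin, had differences of 0.73 ± 0.34 and -0.42 ± 0.21.

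The 34 genes lower in KO without floxed arrays 1 and 2 were, apart from Mir465 and Gm5771, not among the 48 genes. Several are known from stomach. Gast, the hormone gastrin, read 4.96, 4.30 and 7.62 in the floxed arrays and 4.72, 4.50 and 4.43 in the KO arrays, and Cldn18, the claudin of gastric epithelium, read 4.89, 4.95 and 8.30 in the floxed arrays and 4.75, 5.07 and 4.97 in the KO arrays. Muc1, a membrane mucin, read 4.85, 3.60 and 6.16 in the floxed arrays and 3.69, 4.09 and 3.98 in the KO arrays. Cxcl17, a mucosal chemokine, read 4.97, 5.26 and 6.06 in the floxed arrays and 4.16, 4.37 and 4.10 in the KO arrays. Of a list of 20 measured NRF2 and antioxidant genes, 13 had a difference above 0 and 7 one below 0 with 3 against 3. The list's median was 0.32, and -0.27 without floxed arrays 1 and 2. The 3 reductases that follow are not all members of that list. Nqo1, a quinone reductase, read 4.16, 3.03 and 7.67 in the floxed arrays and 4.24, 3.95 and 3.76 in the KO arrays, Cbr3, a carbonyl reductase, read 4.07, 5.12 and 7.59 in the floxed arrays and 3.66, 3.81 and 3.80 in the KO arrays, and Akr1b8, an aldo-keto reductase, read 4.16, 4.25 and 7.02 in the floxed arrays and 2.58, 3.18 and 3.55 in the KO arrays. In Gast, Cldn18, Nqo1 and Cbr3 floxed array 3 stood far above the other 5 adjacent arrays. These 7 genes were chosen after their values were seen, and they did not pass with 3 against 3 (limma adjusted p from 0.0725 to 0.515).

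**Figure D5:**
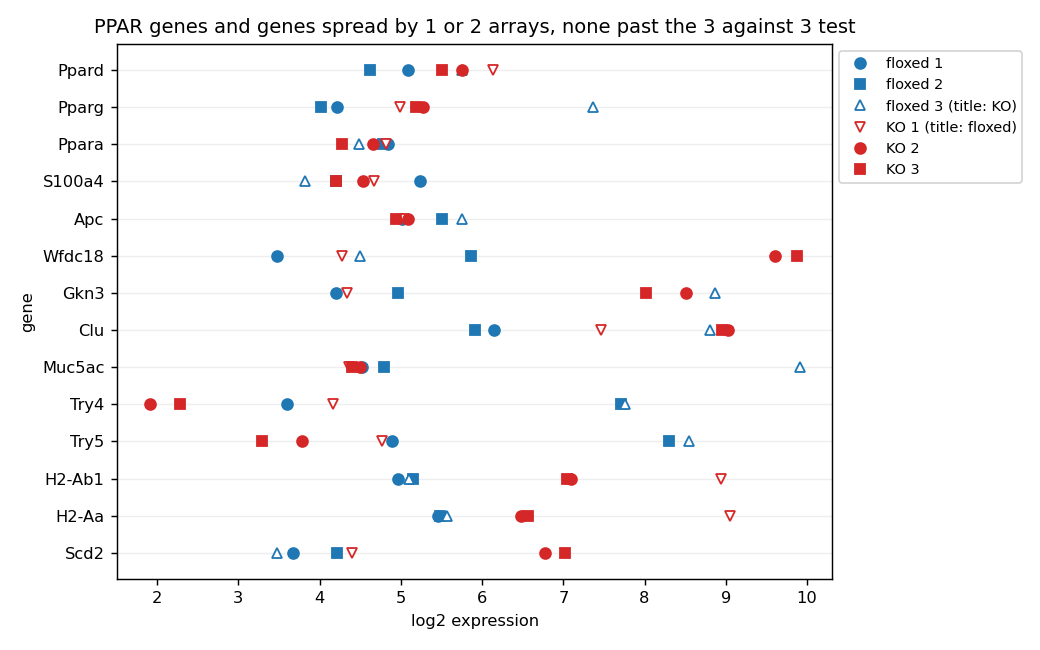
Log2 expression in each adjacent array of the PPAR genes, Apc, S100a4 and genes of the gastric, pancreatic, MHC class II, regenerative and lipid lists, with floxed arrays in blue, KO arrays in red and the 2 arrays of conflicting labels as open marks. Gkn3 is high in the 3 arrays with a KO title, Wfdc18 and Scd2 only in KO arrays 2 and 3, Muc5ac and Pparg only in floxed array 3, and H2-Ab1 and H2-Aa most in KO array 1.

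Antigen presentation genes were highest in KO array 1. Of 9 measured MHC class II genes all had a difference above 0, 4 lay above all floxed arrays (13.7% of all genes did) and none passed; the median was 0.73, and 0.15 with 2 against 2. H2-Ab1, the beta chain of the I-A molecule, read 4.96, 5.16 and 5.10 in the floxed arrays and 8.95, 7.09 and 7.04 in the KO arrays, a difference of 2.62 ± 0.74 (limma adjusted p = 0.109). H2-Aa, its alpha chain, read 5.46, 5.49 and 5.57 in the floxed arrays and 9.05, 6.48 and 6.57 in the KO arrays, and H2-Ob read 4.61, 4.27 and 4.42 in the floxed arrays and 7.23, 4.71 and 4.48 in the KO arrays. In the first 2 every KO array was above the floxed arrays, and KO array 1 stood far above the other KO arrays. Ctss, the protease that trims the invariant chain, had a difference of 0.73 ± 0.39. The mean of the 15 measured B and plasma cell markers was also highest in KO array 1, at 5.37 against 4.38, 4.25 and 4.09 in the floxed arrays and 4.37 and 4.38 in KO arrays 2 and 3. Its part in the MHC values was not tested. The mean of 19 measured macrophage and dendritic cell markers was 4.33, 4.49 and 4.27 in the floxed and 4.45, 4.18 and 4.14 in the KO arrays.

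Fibroblast genes mark the cells at which FSP-Cre is aimed. The list mean of 29 measured genes was 4.62, 4.84 and 4.65 in the floxed arrays and 4.96, 4.99 and 4.91 in the KO arrays, and none passed with 3 against 3. The median difference was 0.39, and 10 genes lay above all floxed arrays (13.7% of all genes). Col1a1 read 5.17, 5.44 and 5.30 in the floxed arrays and 6.15, 6.05 and 6.17 in the KO arrays and Col3a1 read 4.90, 4.27 and 4.61 in the floxed arrays and 5.58, 5.51 and 5.46 in the KO arrays. These 2 collagens had differences of 0.82 ± 0.21 and 0.93 ± 0.23 (limma adjusted p = 0.0946 and 0.0885), which were 0.83 and 0.91 without floxed arrays 1 and 2 and 0.25 and 0.28 by title. Sparc, a matrix protein, read 4.09, 4.60 and 5.42 in the floxed arrays and 5.97, 7.0 and 6.42 in the KO arrays and passed with 2 against 2 (limma adjusted p = 0.0206). Bgn, the proteoglycan biglycan, had a difference of 0.83 ± 0.26.

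No gene had a genotype difference in adjacent epithelium that differed from that in tumor epithelium by the test. For the interaction, limma called 0 of 19938 genes, with 420 at an unadjusted p under 0.05 and a smallest adjusted p of 1.00. The 5 genes with the smallest p were Dnajb9, a chaperone of the endoplasmic reticulum, Mcm7, a helicase subunit, Trav7d-4, the phosphate transporter Slc17a1, and Cyp2c65. Their differences, adjacent minus tumor, were 1.60 ± 0.38, 1.37 ± 0.35, -1.60 ± 0.42, -1.13 ± 0.31 and -2.61 ± 0.72. In tumor epithelium of the same genotypes, 26 of the 48 genes passed in the same fit, beside 132 of all 19938 genes (96 higher and 36 lower). That fit gives a gene the same error in both tissues, for example an SE of 0.27 for Snord42a in each. The 48 genes were chosen by a test that used this error, and a small error favours passing in both tissues. The 26 genes are therefore not an independent repeat. Floxed tumor arrays 1 and 2 had the same narrow spread as floxed adjacent arrays 1 and 2, with an SD of 1.09 and 1.04 against 1.49 to 1.57 in the KO tumor arrays. Array spread was thus unequal between the genotypes in both tissues, and its part in these 26 genes was not tested. Snord42a differed there by 6.26 ± 0.27, and Mir465 by -4.68 ± 0.45. The tissues share no array but share the error of the fit, and whether arrays of the 2 tissues came from the same animals is not known.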

How the data were processed

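RNA of 12 laser-dissected samples was measured on expression arrays, 6 of them of tumor-adjacent epithelium. The deposited table held log2 values for 35556 probe sets; the submitters' processing notes name Partek and RMA, robust multi-array averaging; versions and the genome build were not given in the sources used here. Of the probe sets, 21789 had 1 gene symbol, 1621 several and 12146 none, by the platform annotation; the probe set with the highest mean stood for each of 19938 genes. limma 3.58.1 in R 4.3.3 was fitted to all 12 arrays in 4 groups, with 3 against 3 by the genotype characteristic as the main comparison, and p-values were adjusted by Benjamini-Hochberg; the 2 against 2 fit left out the 2 arrays of conflicting labels. The fit was tested on simulated data. Named genes were the 15 largest rises and falls past the test without overlap and with the same sign in both fits (in falls, filled to 10 by unadjusted p), the PPAR genes, S100a4 and Apc, up to 4 genes of each described list, the 10 widest gaps each way, and the 5 smallest interaction p-values. Predicted genes, microRNAs, snoRNAs and chemoreceptors entered only through the gaps or as classes. The members, gene lists and tests were chosen with earlier results of these data known, and 2 alternatives were added after seeing the data. Host genes come from RefSeq gene models and sequences from RefSeq on GRCm38.p6. Alternatives covered the label, arrays, normalization, scaling, dim genes, probe sets, variance, weights, thresholds and replicate block.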

Additional observations from a re-analysis of the deposited data

How the results depend on the processing

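With 3 arrays against 3, 48 genes passed. The count was 1 with the genotype from the title, 21 with the adjacent arrays fitted alone, 23 after a further quantile normalization, 24 after centring and scaling each array, 89 with all named probe sets, 30 with a trended and robust variance, 2657 with array weights, 519 at an adjusted p under 0.1 and 17 at one under 0.01. It was 49 without the dimmest 30% of genes, of which 44 were higher and 5 lower; that filter moved the median of all genes to 0.17. Chosen after seeing the data, the adjacent arrays alone without floxed arrays 1 and 2 gave 1834, and the lowest-mean probe set gave 31. Leaving out 1 array at a time gave 11 to 3133 genes, the highest without floxed array 3. With 2 against 2, 1209 genes passed; the count was 3435 with adjacent arrays alone, 207 after quantile normalization (123 higher and 84 lower, against 580 and 629), 192 after scaling, 460 without dim genes, 4034 with array weights, 3346 and 35 at the 2 other thresholds, and 1 to 427 with 1 array left out. The interaction called 0 genes under every alternative run. Replicate numbers pair no samples by any source, and the deviations of same-numbered arrays correlated at 0.19, -0.10 and 0.15 by description and at -0.13, -0.07 and -0.25 by title; with the number as a replicate block the count was 72 by description and 44 by title, and 2158 with 2 against 2 by title. By description only 1 number is shared in 2 against 2, so that fit rests on 1 pair of adjacent arrays; limma called 0 genes, with 3130 at an unadjusted p under 0.05. Of the genes chosen by the naming rule, those that changed sign against the 3 against 3 fit did so as follows. By title S100a4 (-0.52), Pparg (1.54), Apc (0.078), Mme (-0.043), Scd1 (-0.048), H2-Aa (-0.46), H2-Ob (-0.83), Ctss (-0.0021), Cela3b (0.016) and Muc5ac (1.71) turned. After a further quantile normalization S100a4 (-0.085) and Pparg (0.076) turned. After scaling each array S100a4 (-0.099), Pparg (0.027) and Rps12 (-0.55) turned. With array weights S100a4 (-0.15) and Pparg (0.47) turned. With 1 array left out in turn, S100a4 ran from -0.26 (without floxed array 3) to 0.46, with -0.061 and -0.052 without floxed array 2 and KO array 1, Pparg from -0.64 to 1.04 (without floxed array 3; 0.036 without KO array 1), and Ppara from -0.24 to 0.031 (without KO array 3). Without floxed arrays 1 and 2, in the fit of all or only adjacent arrays, Ppara (0.093), Crebbp (-0.027), Ncoa3 (-0.081), Clu (-0.33), Zg16 (-0.010) and Gkn3 (-1.91) turned. With the lowest-mean probe set Gas5 (-0.62), Chd7 (-0.63), Ltn1 (-0.88), Psg20 (-0.80), 4932438A13Rik (-1.22) and Taf1d (-0.12) turned. The other genes in the text were recomputed by title and without floxed arrays 1 and 2 only. By title Krt20 (1.18), Nqo1 (1.31), Gast (0.86), Cldn18 (1.25), Cbr3 (0.79), Akr1b8 (0.92), Muc1 (0.70) and Cxcl17 (0.05) turned. Without floxed arrays 1 and 2 Krt8 (-2.46), Epcam (-0.35), Rpl23a (-1.46), Rpsa (-1.35) and Igf2 (0.37) turned, beside Cdh1, Krt18 and Krt19. The cause of these changes was not tested, beyond the arrays, genes or probe sets each alternative leaves out. With 3 arrays a group, the number of arrays limits the precision.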

Other observations

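Several gene groups outside the comparisons above also differed between arrays, without any gene past the 3 against 3 test. Of 58 measured nuclear genes of oxidative phosphorylation, 46 had a difference above 0 and the median was 0.45, but it was -0.32 without floxed arrays 1 and 2. The list mean was 5.36, 5.42 and 6.58 in the floxed arrays and 6.19, 6.45 and 6.14 in the KO arrays. Of 28 measured genes of the unfolded protein response and protein folding in the endoplasmic reticulum, 25 were above 0, with a median of 0.45 that became -0.29 in the same way. Glycolysis genes, 14 of 16 above 0, had a median of 0.49, and of 0.03 without floxed arrays 1 and 2. Of 38 DNA replication genes 19 were above and 19 below 0, and of 29 cell cycle genes 16 were above and 13 below.

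Goblet cell markers had a median of 0.17 over 21 measured genes, Paneth cell markers 0.14 over 14, and tuft cell markers 0.05 over 20. Of 24 enteroendocrine markers 17 were below 0. Markers of the proximal small intestine had a median of 0.47, those of the distal small intestine 0.50 and those of colon 0.22. Over the 46 lists, 36 medians were above 0, and 11 of those were below 0 without floxed arrays 1 and 2; the median over all genes was -0.02 and 0.0070 in the 2 cases. Interferon response genes had a median of 0.31 over 25 measured genes, and the list mean was 4.64, 4.44 and 4.69 in the floxed and 4.99, 5.05 and 4.99 in the KO arrays. Nlrc5, the activator of MHC class I genes, did not pass with 3 against 3 (limma adjusted p = 0.0541), passed without floxed arrays 1 and 2 (1.84, limma adjusted p = 0.0374) and read 7.56, 5.76 and 6.84 in the floxed arrays and 8.85, 8.67 and 8.48 in the KO arrays; it was chosen after its values were seen.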
